A study of Mus musculus with 4 samples.

Results

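The G protein Golf, adenylyl cyclase 5 and DARPP-32 form the core of the cascade by which dopamine and adenosine receptors act on cyclic AMP in the striatum. Its transcripts were followed here through 10 genes, selected by symbol from the 25259 rows of the deposited table: Gnal, Gnb1, Gng7, Ric8b, Adcy5, Ppp1r1b, Ppp1r1a, Arpp21, Arpp19 and Rasd2. All 10 were found, once each, and all had a mean value far above the minimum of 10 needed for testing. The tissue came from C57BL/6 mice aged 8 weeks and was taken by laser capture. The groups were homozygous carriers of a humanised Foxp2 allele (Foxp2hum/hum), with 12 libraries from dorsomedial striatum (DMS) and 12 from dorsolateral striatum (DLS), and wild-type mice, with 11 libraries from DMS and 11 from DLS. The labels name no further allele and no treatment, and they do not tie libraries to animals. The p-values below measure the spread between libraries. They are too small if libraries of the same group shared an animal, and those between regions may be too large if DMS and DLS libraries came from the same animals.

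In medium spiny neurons, which send the output of the striatum, D1 dopamine receptors and the adenosine receptor of Adora2a stimulate cyclic AMP synthesis through a heterotrimer of the alpha subunit Golf (Gnal), a beta subunit such as that of Gnb1 and the gamma subunit of Gng7. D2 and M4 receptors oppose it through Gi and Go proteins. Cyclic AMP made by adenylyl cyclase 5 activates protein kinase A, which turns DARPP-32, the product of Ppp1r1b, into an inhibitor of protein phosphatase 1. Calcineurin removes that phosphate, so that DARPP-32 weighs dopamine against glutamate and calcium signals.

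Normalised reads, the unit throughout, are the authors' read counts divided by 1 size factor per library. Recovered totals over all genes ran from 16.79 to 41.01 M (mega) reads per library, so counting error was small beside the spread between libraries. The labelled tissue was checked with 13 marker genes of medium spiny neurons, none of them at 0 throughout a group. They came from a list that includes Penk and Tac1. Whether they are alike across the subtypes of these neurons was not tested. The summed level of the 13 genes ran from 110400 to 138510 in Foxp2hum/hum DMS, against 158530 to 193210 in Foxp2hum/hum DLS, and from 109080 to 163670 in wild-type DMS, against 154610 to 217360 in wild-type DLS. Libraries 70 (wild-type DLS) and 72 (wild-type DMS) stood apart on the second component of the spread within groups, at 43.2 and 56.3 against at most 19 in the others. The 4 lowest on the first component were 43, 51, 60 and 64. With 70 and 72 left out, 7 of the 10 genes described below passed between regions in each genotype, as with all libraries, and with the other 4 left out 8 passed. Those 4 were chosen after seeing the data. The gene gained was Adcy5, which follows the first component closely, so its gain is not separate support. With all libraries, 8.82% (Foxp2hum/hum) and 8.72% (wild-type) of all genes were lower in DMS. The shares were 9.12% and 8.37% without 70 and 72, and 9.09% and 11.1% without the other 4. In these bulk captures, fewer cells of a type and less RNA per cell cannot be told apart.

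Promoters, from 250 bases before to 50 bases after the annotated start, were at hand for 7 of the 10 genes (RefSeq, build GRCm38.p6). They were not at hand for Gnal, Ppp1r1b and Ppp1r1a. Those of 3 genes are shown, in lower case and 5′ to 3′ on the gene's strand: Ric8b (chr10:84917363-84917662, plus strand), Gnb1 (chr4:155491111-155491410, plus strand) and Rasd2 (chr8:75213694-75213993, plus strand). All 3 genes were lower in DMS than in DLS in both genotypes, as were Gng7 and Arpp19, whose promoters are not shown. Capitals mark TGACG or its reverse complement CGTCA, the short form of the cyclic AMP response element.
Ric8b: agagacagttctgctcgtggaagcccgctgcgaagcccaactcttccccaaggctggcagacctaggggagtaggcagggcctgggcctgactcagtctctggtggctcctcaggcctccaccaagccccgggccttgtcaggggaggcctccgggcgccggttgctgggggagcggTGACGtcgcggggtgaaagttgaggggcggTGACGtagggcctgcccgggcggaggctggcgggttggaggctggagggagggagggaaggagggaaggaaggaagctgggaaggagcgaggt
Gnb1: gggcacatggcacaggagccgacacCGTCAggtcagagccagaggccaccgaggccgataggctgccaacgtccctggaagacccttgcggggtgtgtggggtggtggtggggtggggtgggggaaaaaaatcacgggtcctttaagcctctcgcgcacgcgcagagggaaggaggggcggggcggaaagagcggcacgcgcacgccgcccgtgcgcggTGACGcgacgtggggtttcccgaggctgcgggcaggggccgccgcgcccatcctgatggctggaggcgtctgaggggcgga
Rasd2: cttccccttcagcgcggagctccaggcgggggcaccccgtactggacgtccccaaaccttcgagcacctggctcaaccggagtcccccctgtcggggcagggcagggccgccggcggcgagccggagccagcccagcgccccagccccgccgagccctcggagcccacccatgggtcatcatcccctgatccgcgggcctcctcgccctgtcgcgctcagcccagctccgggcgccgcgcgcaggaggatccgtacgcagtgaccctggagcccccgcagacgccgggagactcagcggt
The short form matched in promoters of 4 of the 7 genes: Ric8b and Gnb1 (2 matches each), 1 of 2 starts of Gng7, and 3 of 9 starts of Arpp21. It also occurs in 20.8% of all 32851 promoters of that length. That share counts single promoters, whereas a gene with several starts, such as Arpp21, had several chances of a match. The count of genes and this share are therefore in unlike units. The promoters of Rasd2, Adcy5 and Arpp19 held none. The full palindrome TGACGTCA, present in 1.79% of all promoters, was in none of the 7, nor was the forkhead motif TGTTTAC or its reverse complement GTAAACA, present in 3.65%. Both strands were searched, the short form lies within the palindrome, and a match is a string of letters and not a site of binding.

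Within each group, levels were compared between genes per kilobase of annotated exon. This assumes that reads were counted over exons, whereas the labels do not state whether exons or whole spans were used. The spans run from 7714 bases (Ppp1r1a) to 170848 (Arpp21), so the order below holds only on that assumption. In Foxp2hum/hum DMS, Ppp1r1b was highest at 9968 ± 1232.7 normalised reads per kb (SD, n = 12), followed by Gng7 at 6393 ± 759 and Rasd2 at 3413 ± 354. Adcy5 (2327 ± 379), Gnb1 (2173 ± 162), Arpp19 (2066 ± 298) and Arpp21 (1989.5 ± 208) followed within 1 SD of their neighbours. Gnal (1418 ± 205) and Ppp1r1a (1355 ± 281) were again within 1 SD of each other, and Ric8b was lowest at 463 ± 38.7. As deposited, the top 3 and the last place were the same in the other 3 groups. In wild-type DLS the top was Ppp1r1b at 15022 ± 1288.5 and the last was Ric8b at 740 ± 65.7 (SD, n = 11). The top place of Ppp1r1b depends on how reads divide between it and a gene that overlaps it, described next. That division is not known, and taking off the whole value of the overlapping gene may remove reads of Ppp1r1b. With that value taken off, Ppp1r1b had 2080 ± 262 per kb in Foxp2hum/hum DMS and 3238 ± 261 in wild-type DLS. It was then below Gng7 and Rasd2 in all 4 groups.

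Genes that overlap in position matter here, because the labels do not state that strand was kept, and without strand the reads of 2 genes in the same stretch cannot be told apart. Ppp1r1b (mm9, chr11:98209718-98219110, plus strand) shares 7079 bases of its span, 460 of them exonic in both, with the lincRNA gene 1700003D09Rik on the opposite strand. The value of 1700003D09Rik equalled 73.8% to 83.07% of that of Ppp1r1b across libraries, and how these reads divide between the genes is not known. Gnal (mm9, chr18:67247990-67386446, plus strand) shares 1263 bases at its 3′ end with Mppe1, a protein-coding gene on the opposite strand whose value equalled 21.78% to 40.9% of that of Gnal. The snRNA, pseudogene, miRNA and non-coding genes that overlap Gnal, Gnb1, Gng7, Adcy5 or Arpp21 had means of at most 4.47% of the host's, the miRNA gene Mir128-2 within Arpp21 among them at 0.06%. For Ric8b, Ppp1r1a, Arpp19 and Rasd2, the table has no overlapping gene.

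The first comparison asked how the cascade differed between DMS and DLS, the subdivisions tied to goal-directed and to habitual behaviour. In each genotype 7 of the 10 genes were lower in DMS than in DLS and none was higher (limma across 19561 genes, Benjamini-Hochberg adjusted p under 0.05). These were Gnal, Gnb1, Gng7, Ric8b, Ppp1r1b, Arpp19 and Rasd2 in both genotypes. Of all genes tested, 8.82% were lower in Foxp2hum/hum mice and 8.72% in wild-type mice, while 9.33% and 8.54% were higher. The median difference of the 10 genes was -0.42 on the log2 scale in both genotypes, against 0.018 in Foxp2hum/hum mice and 0.007 in wild-type mice over all genes.

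The Golf subunits came first in the order of the pathway. Gnal had 8504.9 to 14215 normalised reads (median 11052) in Foxp2hum/hum DMS, against 11875 to 18537 (median 14733) in Foxp2hum/hum DLS. In wild-type mice it had 8411.3 to 15725 (median 11346) in DMS, against 11203 to 21084 (median 16397) in DLS. The groups overlapped, although every DMS library was below the DLS median of its genotype. The difference was -0.45 ± 0.10 on the log2 scale in Foxp2hum/hum mice (SE, limma adjusted p = 0.000644) and -0.48 ± 0.10 in wild-type mice (adjusted p = 0.000493). With the value of Mppe1 taken off, the remainder differed by -0.47 ± 0.13 (adjusted p = 0.00496) and -0.52 ± 0.13 (adjusted p = 0.00279), while Mppe1 itself differed by -0.40 ± 0.06 and -0.37 ± 0.06, in the same order of genotypes. The whole value of Mppe1 was subtracted, although only 365 bases are exonic in both genes. The remainder comes from the same values, so it cannot show which of these genes differed between the regions.

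Gnb1 (mm9, chr4:154865470-154933378), which encodes a beta subunit used by many G proteins, varied least between libraries of a group among the Golf subunits, with a coefficient of variation of 7.4% to 14.7%. It had 6092.1 to 7591.5 normalised reads (median 6765) in Foxp2hum/hum DMS, against 7444.8 to 12630 (median 8773) in DLS, and 6052.3 to 8025.4 (median 7214) in wild-type DMS, against 7558.3 to 10711 (median 9187) in DLS. Only the edges of the ranges overlapped: 10 of 12 Foxp2hum/hum and 7 of 11 wild-type DMS libraries lay below every DLS library of their genotype. The difference was -0.39 ± 0.07 in Foxp2hum/hum mice (limma adjusted p = 8.78e-06) and -0.36 ± 0.07 in wild-type mice (adjusted p = 9.06e-05).

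Gng7 (mm9, chr10:80411369-80477690) encodes the gamma subunit that Golf needs in mouse striatum. It had 18311 to 30446 normalised reads (median 24254) in Foxp2hum/hum DMS, against 24867 to 40399 (median 29877) in DLS. In wild-type mice it had 19597 to 37294 (median 25552) in DMS, against 24232 to 40211 (median 32608) in DLS. The wild-type groups overlapped over most of their range. The difference was -0.32 ± 0.09 in Foxp2hum/hum mice (limma adjusted p = 0.0101) and -0.29 ± 0.10 in wild-type mice (adjusted p = 0.0335). The wild-type call was lost when any 1 of 8 libraries was left out (DMS libraries 18, 34, 50 and 65 and DLS libraries 44, 70, 77 and 86), with adjusted p between 0.0521 and 0.0778.

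Ric8b (mm9, chr10:84380361-84479191) encodes the chaperone and exchange factor that stabilises Golf. It had the lowest level of the 10 genes per kilobase of exon and one of the clearest separations. There were 1187.6 to 1564.7 normalised reads (median 1428) in Foxp2hum/hum DMS, against 1710.2 to 2416.4 (median 2160) in DLS, and 1168.6 to 1695.5 (median 1497) in wild-type DMS, against 1944.2 to 2547.3 (median 2274) in DLS. The DMS and DLS libraries did not overlap in either genotype. The difference was -0.59 ± 0.07 in Foxp2hum/hum mice (1.51-fold lower, limma adjusted p = 1.78e-09) and -0.68 ± 0.07 in wild-type mice (1.6-fold lower, adjusted p = 1.34e-10).

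Adcy5 (mm9, chr16:35154963-35305823), whose product is the main adenylyl cyclase of the striatum, did not pass the test in either genotype. It had 10403 to 19806 normalised reads (median 16736) in Foxp2hum/hum DMS, against 12303 to 27934 (median 21285) in DLS, and 11544 to 24894 (median 18081) in wild-type DMS, against 14929 to 29600 (median 21714) in DLS. Its coefficient of variation within groups, 16.3% to 24.1%, was among the widest of the 10 genes. The difference was -0.32 (95% interval -0.57 to -0.06, limma adjusted p = 0.0789) in Foxp2hum/hum mice and -0.33 (-0.60 to -0.06, adjusted p = 0.0845) in wild-type mice. It passed the test in the Foxp2hum/hum contrast without DLS library 60 or 61 (adjusted p = 0.0238 and 0.046) and in the wild-type contrast without DLS library 43 or 51 or DMS library 72 (adjusted p = 0.0488, 0.0355 and 0.0403). These held the lowest DLS or the highest DMS values of Adcy5, so leaving them out widens the difference. In 44 of 46 (Foxp2hum/hum) and 43 of 46 (wild-type) fits without 1 library it did not pass, with limma adjusted p up to 0.161 and 0.179.

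Rasd2 (mm9, chr8:77737843-77748012) encodes Rhes, a small GTPase enriched in striatum that restrains signalling through Golf and cyclic AMP. It had 8160.7 to 12416 normalised reads (median 11036) in Foxp2hum/hum DMS, against 13986 to 22318 (median 18280) in DLS, and 8271.8 to 15615 (median 11506) in wild-type DMS, against 15135 to 25802 (median 20722) in DLS. The Foxp2hum/hum groups did not overlap, and in wild-type mice 2 DMS libraries reached into the DLS range. The difference in Foxp2hum/hum mice was -0.74 ± 0.09 (1.67-fold lower, limma adjusted p = 1.61e-08), and in wild-type mice it was -0.76 ± 0.10 (1.69-fold lower, adjusted p = 2.42e-08).

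**Figure D1:**
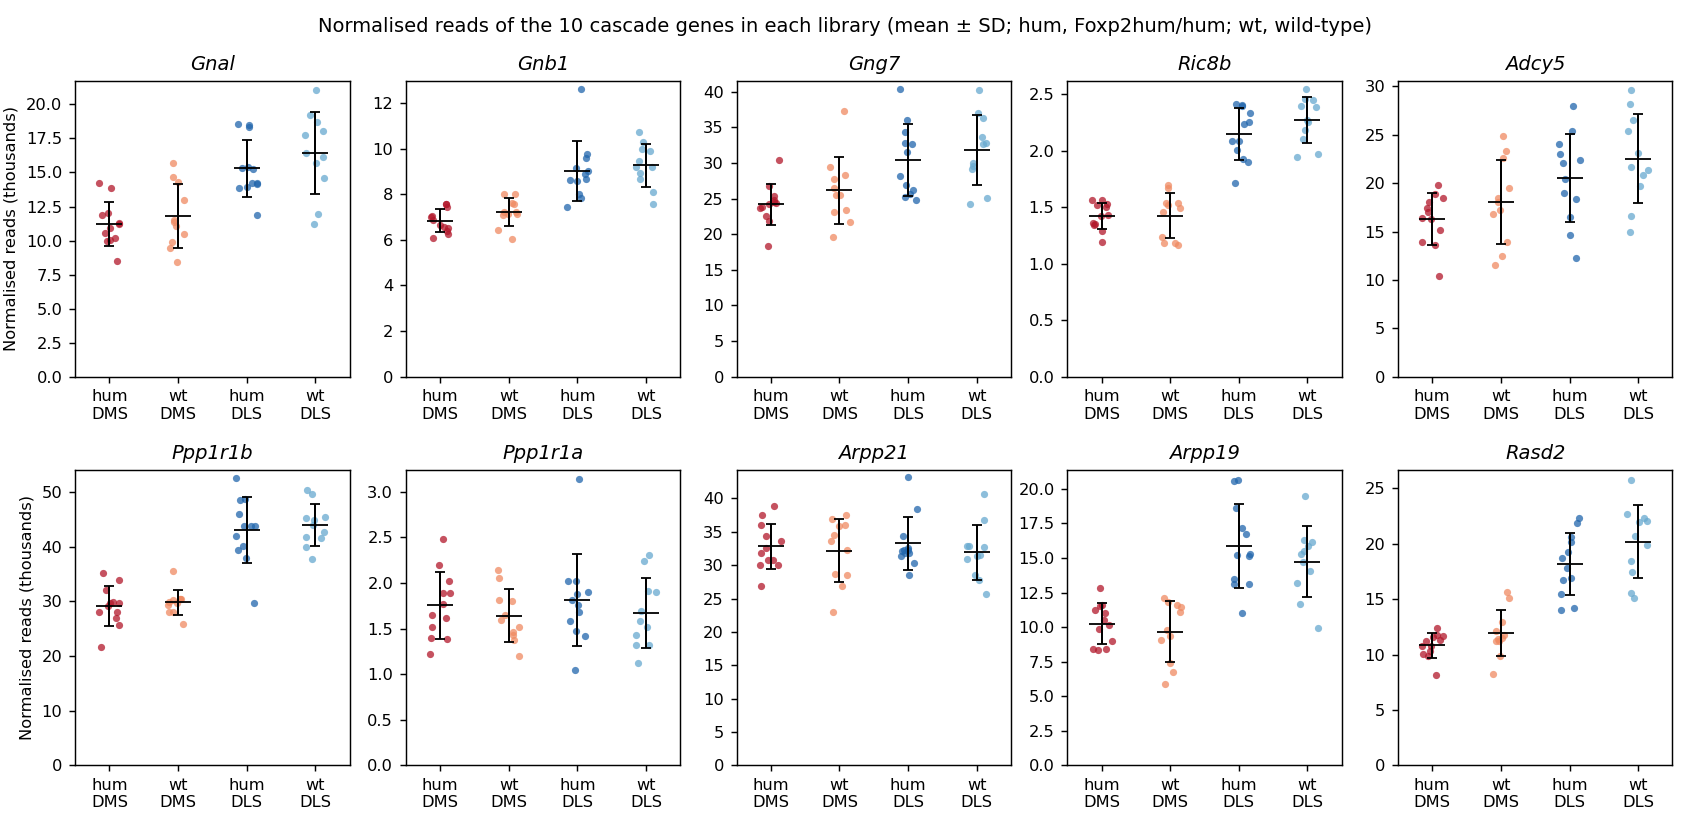
Normalised reads (y axis, scaled from 0) of each of the 10 genes in every library, by group, with mean and SD as black marks. Ric8b separated DMS from DLS in both genotypes, with at most 1695.5 in DMS and at least 1710.2 in DLS, whereas Ppp1r1a and Arpp21 lay at like levels in all 4 groups.

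The inhibitors of protein phosphatases did not behave as 1 group. Ppp1r1b had 21733 to 35237 normalised reads (median 29403) in Foxp2hum/hum DMS, against 29675 to 52575 (median 43853) in DLS, and 25866 to 35523 (median 29917) in wild-type DMS, against 37749 to 50349 (median 44035) in DLS. The wild-type groups did not overlap, and in Foxp2hum/hum mice 1 DLS library lay within the DMS range. The difference was -0.56 ± 0.08 in both, with limma adjusted p = 1.4e-07 in Foxp2hum/hum mice and 3.92e-07 in wild-type mice. After subtraction of the value of 1700003D09Rik, the remainder, with a mean of 7752.3, was lower in DMS, with -0.57 ± 0.07 (log2, limma adjusted p = 2.33e-08) in Foxp2hum/hum mice and -0.56 ± 0.08 (adjusted p = 1.03e-07) in wild-type mice. The reads credited to 1700003D09Rik differed by -0.55 ± 0.08 and -0.56 ± 0.08. The remainder comes from the same values, and how the reads divide between Ppp1r1b and 1700003D09Rik is not known. It therefore cannot show which of these genes differed between the regions.

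Ppp1r1a (mm9, chr15:103360710-103368423) encodes inhibitor 1, the relative of DARPP-32 that also blocks protein phosphatase 1 once protein kinase A has phosphorylated it. It had 1226.1 to 2479.2 normalised reads (median 1710) in Foxp2hum/hum DMS, against 1048.4 to 3138.6 (median 1789) in DLS, and 1198.2 to 2147.2 (median 1596) in wild-type DMS, against 1124.5 to 2304.5 (median 1587) in DLS. The groups overlapped almost wholly. The difference was -0.03 (95% interval -0.28 to 0.22, limma adjusted p = 0.905) in Foxp2hum/hum mice and -0.01 (-0.27 to 0.25, adjusted p = 0.971) in wild-type mice.

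Arpp19 (mm9, chr9:74885421-74908120) encodes a small substrate of protein kinase A and of Greatwall kinase that inhibits protein phosphatase 2A. It had 8310.3 to 12860 normalised reads (median 10316) in Foxp2hum/hum DMS, against 11007 to 20645 (median 15253) in DLS, and 5920.3 to 12101 (median 9817) in wild-type DMS, against 9917.2 to 19456 (median 15270) in DLS. Every DMS library lay below the DLS median of its genotype, with overlap at the edges. The difference was -0.62 ± 0.11 in Foxp2hum/hum mice (limma adjusted p = 3.18e-05) and -0.62 ± 0.12 in wild-type mice (adjusted p = 6.15e-05).

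Arpp21 (mm9, chr9:111967595-112138442) gives rise to the striatal substrate of protein kinase A known as RCS, which binds calmodulin, and to longer isoforms, which gene-level values do not separate. It had 26929 to 38805 normalised reads (median 32240) in Foxp2hum/hum DMS, against 28478 to 43287 (median 32158) in DLS, and 22999 to 37495 (median 33643) in wild-type DMS, against 25615 to 40593 (median 31458) in DLS. The difference was -0.02 (95% interval -0.18 to 0.14, limma adjusted p = 0.908) in Foxp2hum/hum mice and 0.01 (-0.16 to 0.18, adjusted p = 0.974) in wild-type mice. These intervals exclude a difference of the size measured for Rasd2, Ric8b, Arpp19 or Ppp1r1b.

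Markers of some cell types differed between the regions. Of all genes, 8.82% were lower and 9.33% higher in Foxp2hum/hum DMS, and 8.72% and 8.54% in wild-type DMS. In lists this short, a count of 1 or 2 was not read as a shift. Of the 13 medium spiny neuron genes, 7 were lower in DMS in each genotype and none higher, with a median difference of -0.35 in Foxp2hum/hum mice and -0.37 in wild-type mice. Of 10 choroid plexus and ependyma markers, 7 were higher in each genotype, and their summed level was 2871.2 to 11863 in Foxp2hum/hum DMS, against 1909.5 to 2549.5 in DLS, and 2548.8 to 16728 in wild-type DMS, against 1705.8 to 2622 in DLS. All 5 neuroblast markers were higher in DMS in both genotypes, their sum being 632.96 to 2522.7 in Foxp2hum/hum DMS, against 137.92 to 341.11 in DLS, and 759.4 to 2063.6 in wild-type DMS, against 189.25 to 349.2 in DLS. Of 9 oligodendrocyte markers, 2 were higher in wild-type DMS and none in Foxp2hum/hum DMS. None of the 6 microglial and 6 endothelial and mural markers passed. Of 7 astrocyte markers, 1 was lower and 2 were higher in each genotype. Of 7 striatal interneuron markers, 3 were lower in each genotype and 1 was higher in wild-type mice. Among 5 tested cortical markers 1 was higher in Foxp2hum/hum mice, and among 5 septal ones 1 was higher in each genotype and 1 lower in wild-type mice. No marker on these lists was at 0 throughout a group.

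Taken relative to the mean log2 level of the 13 medium spiny neuron genes in the same library, the pattern among the 10 genes changed. This scaling raised the median difference of all genes from 0.018 to 0.414 in Foxp2hum/hum mice and from 0.007 to 0.442 in wild-type mice. On it, 2.09% of all genes were lower in Foxp2hum/hum DMS and 1.86% in wild-type DMS, while 59.9% and 62.1% were higher. Rasd2 was lower by this measure, with -0.34 ± 0.06 in Foxp2hum/hum mice (limma adjusted p = 1.41e-05) and -0.33 ± 0.07 in wild-type mice (adjusted p = 5.5e-05). Ric8b was lower too, with -0.19 ± 0.05 (adjusted p = 0.00223) and -0.24 ± 0.06 (adjusted p = 0.000317). Gnal stood at -0.05 and -0.04, close to the medium spiny neuron genes themselves, and Gnb1, Gng7 and Adcy5 lay between 0.00 and 0.15, none of them passing.

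Ppp1r1b stood at -0.16 and -0.12 and Arpp19 at -0.22 and -0.19 relative to the medium spiny neuron genes, and neither passed. Arpp21 was higher relative to them, with 0.38 ± 0.11 in Foxp2hum/hum mice (limma adjusted p = 0.00388) and 0.44 ± 0.12 in wild-type mice (adjusted p = 0.00132), and Ppp1r1a had 0.37 ± 0.17 (adjusted p = 0.0575) and 0.43 ± 0.18 (adjusted p = 0.0341). Both genes thus lay within 1 standard error of the median of all genes on this scale. Under quantile normalisation, which left 8.6% of all genes lower in Foxp2hum/hum DMS and 8.25% in wild-type DMS, 3 of the 10 were lower in each genotype: Ric8b, Arpp19 and Rasd2.

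**Figure D2:**
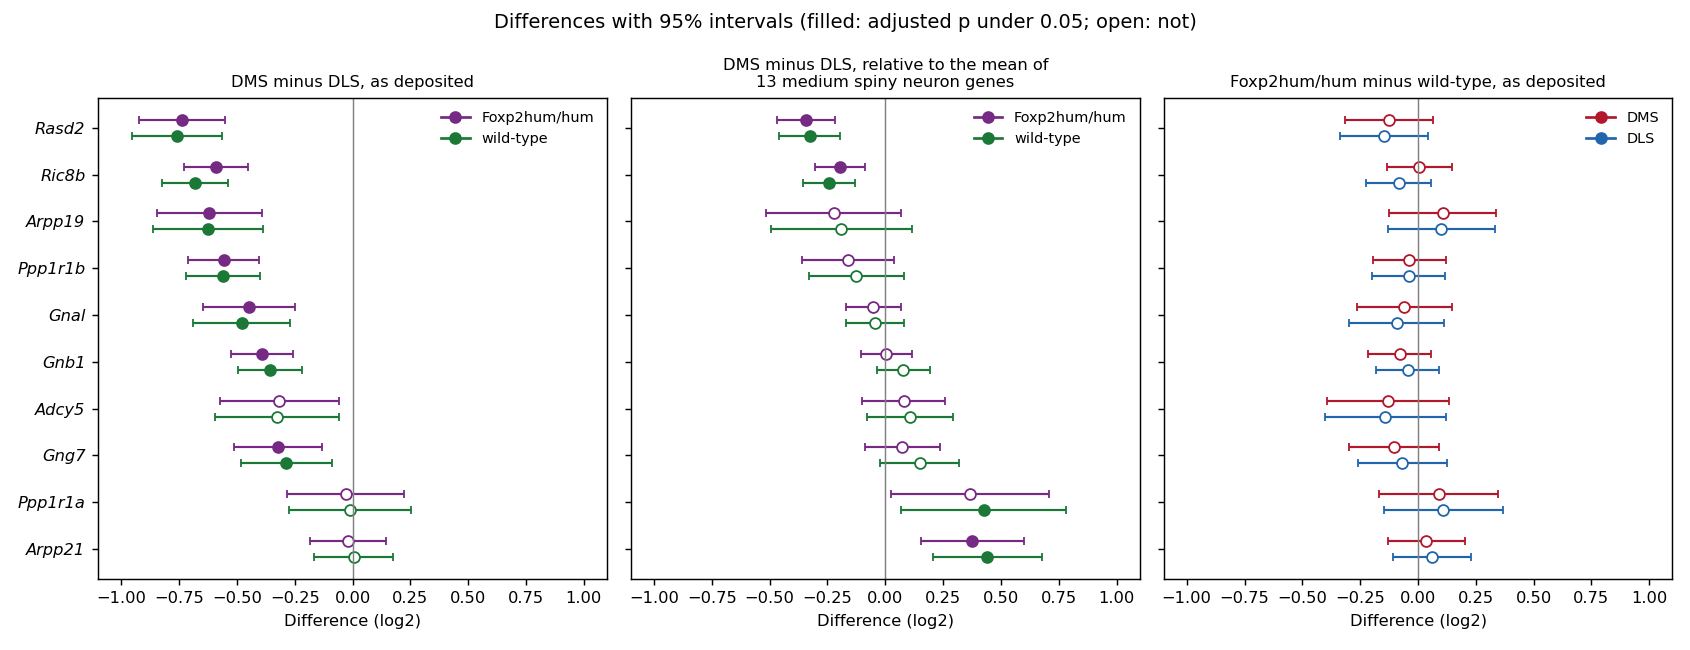
Log2 differences of the 10 genes with 95% intervals: DMS minus DLS in each genotype as deposited (left) and relative to 13 medium spiny neuron genes (middle), and the genotype difference, Foxp2hum/hum minus wild-type, for DMS and DLS (right). Filled points had an adjusted p under 0.05: 7 per genotype on the left, Rasd2, Ric8b and Arpp21 in both genotypes and Ppp1r1a in wild-type mice in the middle, and none on the right.

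The rest of the cascade, 74 genes in the table of which 72 were tested, had calls in both directions. In Foxp2hum/hum mice 19 were lower and 10 higher in DMS, beside 8.82% of all genes lower and 9.33% higher. In wild-type mice 21 were lower and 10 higher, beside 8.72% of all genes lower and 8.54% higher. The median difference over the 72 was -0.05 and -0.07. Relative to the medium spiny neuron genes, 4 of the 72 were lower in each genotype, and 45 in Foxp2hum/hum mice and 44 in wild-type mice were higher, shares near the 59.9% and 62.1% of all genes that were higher on that scale. As deposited, the upstream receptors were lower throughout: Drd1a, Drd2, Adora2a and Chrm4 were 4 of 4 in each genotype. Chrm4, the M4 muscarinic receptor coupled to Gi, averaged 1054 ± 138 normalised reads in Foxp2hum/hum DMS, against 1560 ± 197 in DLS (log2 difference -0.57 ± 0.09, limma adjusted p = 2.04e-06). In wild-type mice it averaged 1085 ± 202 in DMS, against 1707 ± 220.3 in DLS (-0.67 ± 0.09, adjusted p = 1.93e-07).

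Other G protein subunits had more calls higher than lower in DMS. Of 19 tested, 5 were higher in Foxp2hum/hum mice and 6 in wild-type mice, and 2 were lower in each. Of all genes, 9.33% and 8.54% were higher and 8.82% and 8.72% lower. Of the 2 chaperone genes tested with them, Ric8 was higher in Foxp2hum/hum mice (0.30 ± 0.09, limma adjusted p = 0.00949) and Pdcl did not pass. Gnb4, another beta subunit, averaged 555 ± 66.9 normalised reads in Foxp2hum/hum DMS, against 249 ± 56.9 in DLS (log2 difference 1.18 ± 0.10, limma adjusted p = 3.31e-13), and 533 ± 70.7 in wild-type DMS, against 217 ± 34.6 in DLS (1.30 ± 0.11, adjusted p = 7.78e-14). The inhibitory alpha subunits Gnai1 and Gnai2 were higher as well, Gnai1 by 0.87 ± 0.09 and 0.83 ± 0.09 and Gnai2 by 0.37 ± 0.07 and 0.41 ± 0.07, in Foxp2hum/hum and wild-type mice. Gnao1, the alpha subunit of Go, was lower, with -0.44 ± 0.12 in both genotypes, as was Gnb5, the beta subunit that pairs with regulators of G protein signalling, with -0.18 ± 0.06 and -0.21 ± 0.07.

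Among 9 other adenylyl cyclases none was higher, while 3 were lower in Foxp2hum/hum mice and 2 in wild-type mice. Of all genes, 8.82% and 8.72% were lower and 9.33% and 8.54% higher. Adcy1, the calcium-stimulated form, averaged 1059 ± 330 normalised reads in Foxp2hum/hum DMS, against 2074 ± 785 in DLS (-0.94 ± 0.22, limma adjusted p = 0.00118), and 1239 ± 447 in wild-type DMS, against 2267 ± 826 in DLS (-0.86 ± 0.23, adjusted p = 0.0052). Adcy3 differed by -0.33 ± 0.11 and -0.42 ± 0.12. Of 10 protein kinase A genes, 4 were higher and none lower in Foxp2hum/hum mice, and 2 were higher and 1 lower in wild-type mice. Prkar1b, a regulatory subunit, had 0.29 ± 0.07 and 0.36 ± 0.07, and Pkig, an inhibitor of the kinase, 0.40 ± 0.11 and 0.41 ± 0.11.

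Of 11 genes of the phosphatases around DARPP-32, 6 were lower and none higher in Foxp2hum/hum mice, and 7 were lower and 1 higher in wild-type mice. Of 7 genes of its kinases none was lower, and 1, Csnk1e, was higher in wild-type mice (0.22 ± 0.08, limma adjusted p = 0.0368). The shares over all genes were 8.82% and 8.72% lower and 9.33% and 8.54% higher, in Foxp2hum/hum and wild-type mice. Ppp3r1, the regulatory subunit of calcineurin, averaged 11090 ± 1068 normalised reads in Foxp2hum/hum DMS, against 15570 ± 970 in DLS, and 10490 ± 1488 in wild-type DMS, against 15340 ± 1323 in DLS. The log2 difference was -0.49 ± 0.07 (limma adjusted p = 1.75e-07) and -0.56 ± 0.07 (adjusted p = 3.2e-08). Among the catalytic subunits of protein phosphatase 1, the target of DARPP-32, Ppp1ca and Ppp1cc were lower in both genotypes, Ppp1ca with -0.60 ± 0.10 and -0.55 ± 0.10 and Ppp1cc with -0.54 ± 0.08 and -0.64 ± 0.09. The third, Ppp1cb, had -0.16 ± 0.07 (limma adjusted p = 0.0964) in Foxp2hum/hum mice, where it did not pass, and -0.26 ± 0.07 (adjusted p = 0.00469) in wild-type mice. Of 10 relatives and partners, 4 were lower in Foxp2hum/hum mice and 5 in wild-type mice, among them the calmodulin gene Calm3 (-0.53 ± 0.06 and -0.45 ± 0.06). Ppp2r2a, a regulatory subunit of the form of protein phosphatase 2A that ARPP19 inhibits, differed by -0.51 ± 0.06 and -0.46 ± 0.07.

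**Figure D3:**
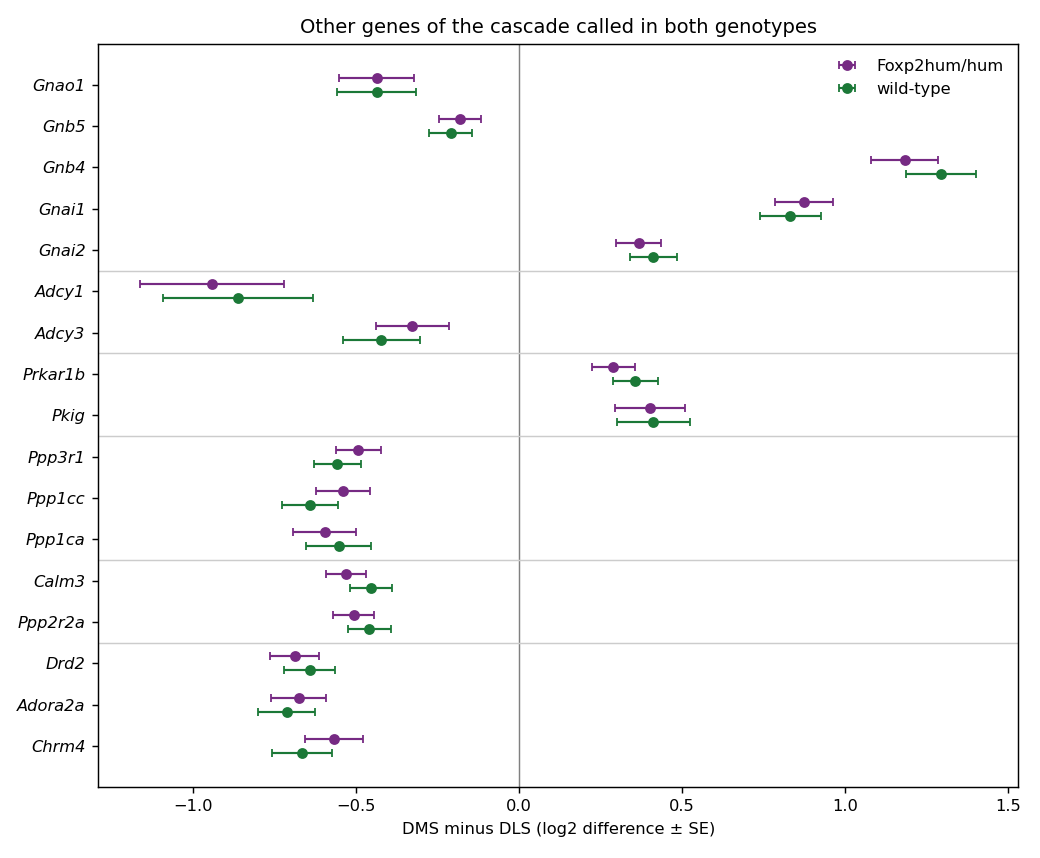
DMS minus DLS log2 differences (x axis, with SE) of the other cascade genes that passed in both genotypes, up to 3 per list and direction, grouped by list with grey lines between lists. Gnb4, Gnai1, Gnai2, Prkar1b and Pkig were higher in DMS, and the other 12 shown were lower.

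The second comparison, Foxp2hum/hum against wild-type, asked whether the humanised allele altered the cascade. None of the 10 genes passed in DMS or in DLS (limma, with 0% of all genes passing in either region). At an unadjusted p under 0.05, 700 of the 19561 genes differed in DMS and 843 in DLS, but none of the 10, whose smallest unadjusted p was 0.123 for Rasd2 in DLS. DESeq2 called 0 genes in DMS and 3 in DLS, none of them among the 10. The group values above overlap between genotypes in every gene and region. The widest differences were those of Rasd2 in DLS, -0.15 (95% interval -0.34 to 0.04, limma adjusted p = 0.843), and of Adcy5 in DLS, -0.14 (-0.40 to 0.12, adjusted p = 0.843).

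For 9 of the 10 genes the estimate had the same sign in both regions. The genes covary between libraries, as described below, and DMS and DLS libraries may come from the same animals. The count is therefore a description, and the like share over all genes was not computed. Gnal, Gnb1, Gng7, Adcy5, Ppp1r1b and Rasd2 had negative estimates in DMS and DLS, from -0.15 to -0.04, and Ppp1r1a, Arpp21 and Arpp19 positive ones, from 0.04 to 0.11. Ric8b stood at 0.01 in DMS and -0.08 in DLS. None can be told from 0 at this spread, and the intervals reach to -0.40 on the log2 scale for Adcy5 and to -0.22 for Ric8b in DLS. No gene of the 10 passed the interaction of genotype and region, which compares the regional differences of the genotypes, nor did any other gene tested (0%, with 321 at an unadjusted p under 0.05). The widest interaction was 0.09 for Ric8b (-0.11 to 0.29, adjusted p = 1).

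Within groups the 10 genes fell into a pair of blocs. Their deviations from the 4 group means, taken on log2(value + 1) over 46 libraries, were positively correlated in all 15 pairs among Gnal, Gnb1, Gng7, Ric8b, Adcy5 and Rasd2, with Pearson's r of 0.32 to 0.90 and a median of 0.74. They were also positive in all 6 pairs among Ppp1r1b, Ppp1r1a, Arpp21 and Arpp19 (0.26 to 0.78, median 0.57). All 24 pairs across the blocs were negative or near 0, from -0.81 to 0.00, with a median of -0.49. Gnal and Adcy5 were the closest pair (r = 0.90, Spearman's rho = 0.90), followed by Adcy5 and Rasd2 (0.89 and 0.85). Adcy5 and Ppp1r1a were the most opposed (-0.81 and -0.76). The blocs were read off these values, and libraries share their processing, so the correlations are descriptions.

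**Figure D4:**
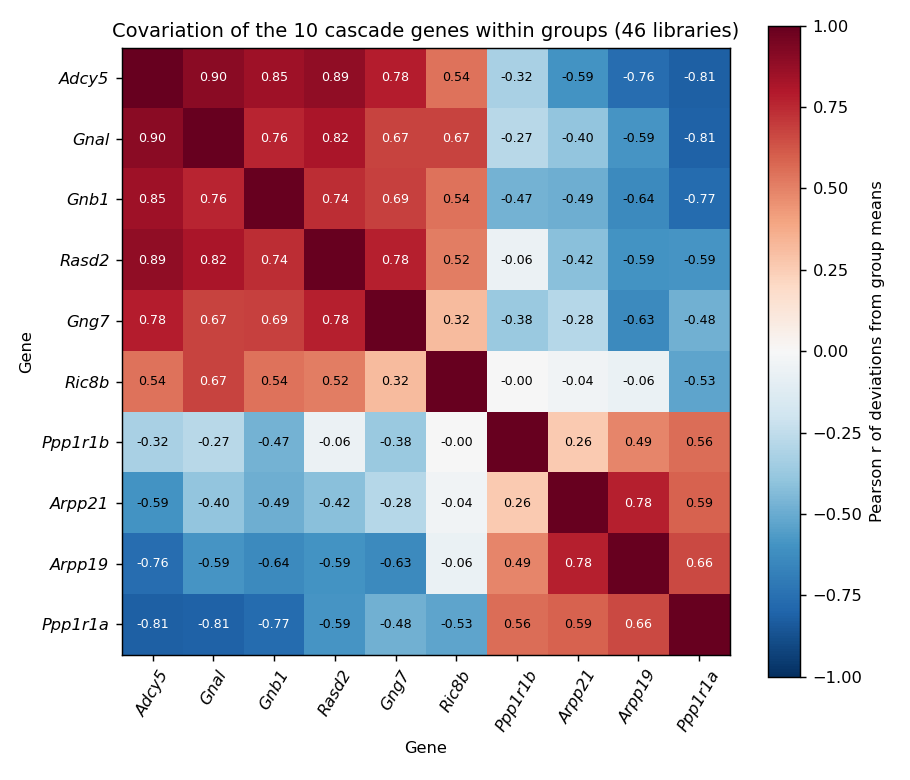
Pearson's r between the 10 genes over 46 libraries, each gene taken as its deviation from the mean of its group (red positive, blue negative). The upper left block of 6 genes and the lower right block of 4 are positive throughout, and the blocks between them run from 0.00 to -0.81.

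These blocs followed the widest axis of variation in the transcriptome. The first component of the deviations of 15253 other genes held 34% of their spread, against 8.3% for the second, and spanned -53.9 to 34.7 units in Foxp2hum/hum DMS, -40.8 to 42.3 in wild-type DMS, -56.6 to 56 in Foxp2hum/hum DLS and -53.4 to 44.9 in wild-type DLS. Oriented so that Adcy5 rises with it, it had r = 0.95 with Adcy5, 0.93 with Gnal, 0.84 with Gnb1, 0.80 with Rasd2, 0.70 with Gng7 and 0.54 with Ric8b. It had r = -0.91 with Ppp1r1a, -0.75 with Arpp19, -0.56 with Arpp21 and -0.48 with Ppp1r1b. Adcy5 stood at the 99.2nd percentile of all genes by this measure and Ppp1r1a at the 3.1st. The other members lay less far out, among them Ric8b at the 74.7th, Ppp1r1b at the 27.7th and Arpp21 at the 23.6th. Of 15263 genes with a mean of at least 50, 27.6% had an r above 0.5 and 26.7% below -0.5. An r of that size was therefore common.

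Across 12700 genes with a protein-coding transcript in the annotation (83.2% of those with a value), the r with this component rose with the length of the longest transcript (Spearman's rho = 0.72) and hardly with its GC content (-0.05). Genes are not independent replicates, and the cause was not tested. The transcript of Adcy5 is 7007 bases long and that of Gnal 5616, against a median of 3064.5, while that of Ppp1r1a has 1295 and that of Ppp1r1b 2001. Arpp19, with 4046 bases, and Arpp21, with 3952, were longer than the median and yet fell with the component. The share of mitochondrial reads, corrected for group means, had r = -0.59 with the component, -0.62 with Adcy5 and 0.79 with Arpp21. The mean level of the medium spiny neuron genes had r = 0.85 with the component and 0.94 with Gnal, and sequencing depth had -0.18 and -0.07.

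A surrogate variable estimated over all genes lay along this axis, with an absolute r of 0.997 with the first component over 46 libraries after removal of group means. With it as a covariate, an alternative chosen after seeing the data, the difference of Adcy5 between DMS and DLS was -0.31 ± 0.05 in Foxp2hum/hum mice (limma adjusted p = 5.87e-07) and -0.29 ± 0.05 in wild-type mice (adjusted p = 8.87e-06). The standard error was 0.13 in each without it. Adcy5 follows this axis and was among the genes that the variable was estimated from. The smaller standard error follows from that, and the adjusted p is not separate support for a difference. Of all genes, 14.4% (Foxp2hum/hum) and 13.9% (wild-type) were lower in DMS with the covariate, against 8.82% and 8.72% without it. Ppp1r1a then stood at -0.03 ± 0.06 and -0.05 ± 0.06 and Arpp21 at -0.02 ± 0.07 and -0.01 ± 0.07, neither passing. Genotype differences of the 10 genes did not pass with this covariate either.

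**Figure D5:**
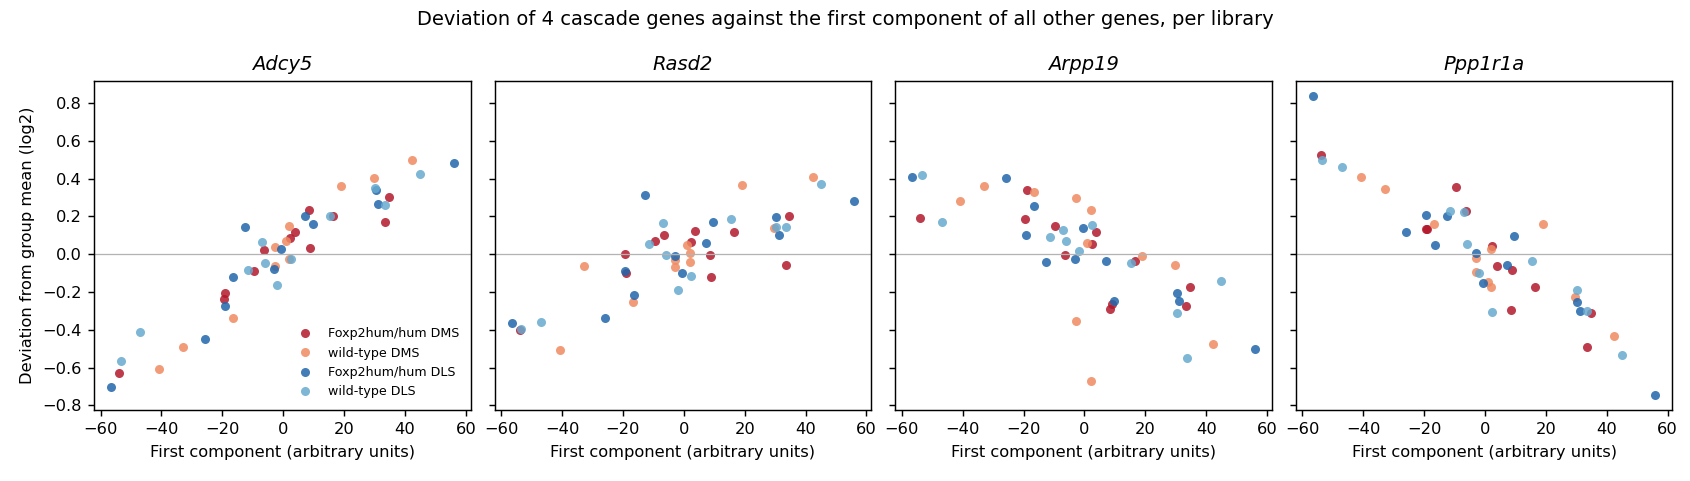
Deviation of Adcy5, Rasd2, Arpp19 and Ppp1r1a from the mean of their group (log2, y axis) against the first component of all other genes (arbitrary units, x axis), 1 point per library. Adcy5 and Rasd2 rise along the axis (r = 0.95 and 0.80) and Arpp19 and Ppp1r1a fall (r = -0.75 and -0.91), with libraries of all 4 groups at both ends.

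The genes whose within-group pattern was most like that of each member, over the same 46 libraries, were as follows, by Pearson's r. Gnal was closest to Pde10a (0.96), Aak1 (0.95) and Cyfip2 (0.95). Adcy5 was closest to Rab6b (0.98), Smpd3 (0.97) and AC154446.1 (0.97), and Rasd2 to Arhgef17 (0.93), Pde2a (0.93) and Mras (0.92). Gnb1 was closest to Scn2b (0.90), Cbx6 (0.88) and Atp9a (0.88), and Gng7 to Ppp1r9b (0.94), Sept3 (0.93) and Tbc1d9b (0.93). Ric8b had the weakest likenesses, with Elmo1 (0.79), Dnm1l (0.79) and Cdk17 (0.78). In the other bloc, Ppp1r1b was closest to Hpca (0.90), Rab3a (0.88) and Atp6v0d1 (0.88), and Ppp1r1a to Eif5a (0.95), Sepw1 (0.94) and AC120410.1 (0.93). Arpp19 was closest to Tusc3 (0.90), Sub1 (0.90) and Hprt (0.89), and Arpp21 to AC100550.1 (0.82), Ap1s2 (0.82) and Eif3e (0.80).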

How the data were processed

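Messenger RNA was sequenced from laser-captured striatum on 3 flow cells. The submitters' processing notes name mm9, TopHat 1.4.1, bedtools and DESeq. The deposited table holds a signal per gene and library that the authors made by dividing counts by size factors: in each library, 100% of values were, within 0.01, a whole number of reads times a constant, which gave the reads back. No 2 libraries of a group were copies of each other (lowest chi-square per degree of freedom 11.32 over 242 pairs). Annotation came from GENCODE M1 on mm9.

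For genes averaging at least 10, log2(value + 1) was modelled in limma 3.58.1 (R 4.3.3; trended eBayes, 4 group means over 46 libraries), two-sided, with Benjamini-Hochberg adjustment over 19561 genes, a threshold of 0.05 and 95% intervals. The steps were checked on simulated counts. The 10 genes and all lists were chosen with earlier results of these data known. Named cascade genes were the up to 3 per list and direction with the smallest p among those passing in both genotypes (1 of them is not reported here), and likeness was restricted to genes with a mean of at least 50. The tests were repeated with changed pseudocounts, filters and normalisations, and with edgeR 4.0.16, DESeq2 1.42.0, array weights, covariates, sva 3.50.0 and left-out libraries. Figures used matplotlib 3.10.9.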

Additional observations from a re-analysis of the deposited data

How the results depend on the processing

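Relative to the medium spiny neuron genes, 2 of the 10 genes stayed lower in DMS in each genotype, and 1 was higher in Foxp2hum/hum mice and 2 in wild-type mice. Of the other cascade genes, 4 were then lower in each genotype and 45 (Foxp2hum/hum) and 44 (wild-type) higher. Of all genes, 2.09% and 1.86% were lower on this scale and 59.9% and 62.1% higher. Gnb1 moved to 0.0044 (Foxp2hum/hum) and 0.0778 (wild-type), Gng7 to 0.0737 and 0.15, Arpp21 to 0.38 in Foxp2hum/hum mice and Ppp1r1a to 0.43 in wild-type mice. With quantile normalisation, 3 of the 10 were lower in each genotype, Gng7 moved to 0.0217 and 0.0684, and 9 and 10 other cascade genes were lower. Of all genes, 8.6% and 8.25% were lower with it. With Ttr and Ccdc153, which themselves separate the regions, as covariates, 0 of the 10 and 0 other cascade genes were lower, and 5 (Foxp2hum/hum) and 4 (wild-type) other cascade genes were higher. Calls over all genes fell as well, to 0.639% and 0.47% lower and 1.14% and 0.849% higher. Gnal then stood at 0.0237 and 0.0877, and in wild-type mice Gnb1 at 0.0523 and Gng7 at 0.0486. Adcy5 stood at 0.36 and 0.47, without passing. The cause of these shifts was not tested.

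In the other alternatives, 7 or 8 of the 10 genes were lower in Foxp2hum/hum mice and 6 to 8 in wild-type mice, and leaving out 1 library gave 7 to 8 and 6 to 8. The share of all genes called lower moved as well. With 1 surrogate variable it was 14.4% (Foxp2hum/hum) and 13.9% (wild-type), beside 8.82% and 8.72% in the main fit. With array weights it was 11.5% and 11.4%, and without libraries 43, 51, 60 and 64 it was 9.09% and 11.1%. DESeq2 gave 9.84% and 9.36%, groups fitted alone 8.55% and 7.82%, and no filter 6.75% and 6.7%. Adcy5 was the gene gained, with array weights, 1 surrogate variable, a threshold of 0.1 or without libraries 43, 51, 60 and 64, and with DESeq2 in Foxp2hum/hum mice (adjusted p = 0.0413). The surrogate variable and the leaving out of these libraries were chosen after seeing the data. Gng7 was the gene lost, in wild-type mice, with no filter (adjusted p = 0.0517) or with the compared groups fitted alone (0.0708). No genotype or interaction value of the 10 genes passed under any alternative, left-out library included (smallest adjusted p = 0.416). No paired analysis was possible because the labels tie no library to an animal. Precision was limited by the spread between libraries and not by depth.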
